A study of Mus musculus with 24 samples.

Results

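Ionotropic glutamate receptors of the AMPA and NMDA types were followed at the mRNA level in the nucleus accumbens (NAc) of stressed and unstressed mice. The 10 genes were chosen by symbol, though with earlier results of these data known, and looked up by Ensembl identifier among the 38293 genes counted. They were the 4 AMPA receptor subunits *Gria1*, *Gria2*, *Gria3* and *Gria4* and the 6 NMDA receptor subunits *Grin1*, *Grin2a*, *Grin2b*, *Grin2c*, *Grin2d* and *Grin3a*. All 10 had enough reads to be tested in every comparison, with 366 to 59074 reads per gene and library.

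The mice were gonadally intact C57BL/6J males and females, 9 weeks old by the labels and 8 weeks by the methods, and the labels name no transgene or drug. Unstressed males (NSM) and unstressed females (NSF) stayed group housed in the home cage, and stressed males (SM) and stressed females (SF) received subchronic variable stress (SCVS), in which foot shock, tail suspension and restraint alternated over 6 days. NAc was punched a day after the last stressor, all females being in estrus or proestrus. Each group had 3 libraries, and a library was made from 10 punches pooled from 5 mice, so that differences between single mice were not measured.

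AMPA receptors are tetramers of GluA1 to GluA4, encoded by *Gria1* to *Gria4*, and carry most of the fast excitatory current at synapses. NMDA receptors pair the obligatory GluN1 subunit (*Grin1*) with GluN2 subunits (*Grin2a* to *Grin2d*), which bind glutamate and set the kinetics, or with GluN3 subunits such as GluN3A (*Grin3a*), which lower calcium entry. In the NAc the principal cells are GABAergic medium spiny neurons, which receive glutamatergic input from cortex, hippocampus, amygdala and thalamus, and the AMPA receptor makeup at these synapses is known to shift with stress and drug exposure.

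The pore of each receptor is lined by a short re-entrant loop, and one residue of that loop separates the families. In AMPA subunits it is the Q/R site, where the *Gria2* transcript is edited from a glutamine to an arginine codon so that receptors holding GluA2 pass little calcium. In GluN1 and GluN2 the matching residue is an asparagine involved in magnesium block. The stretch around that codon is shown for 8 of the 10 genes, all but *Grin2b* and *Grin3a*, because this residue separates the families. Each stretch is 30 bases of coding exon on the sense strand of NCBIM37, 5′ to 3′, with the codon in capitals.
*Gria1* (chr11:57056584-57056613, plus strand): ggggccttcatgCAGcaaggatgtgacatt
*Gria2* (chr3:80510818-80510847, minus strand): ggtgcctttatgCAGcaaggatgcgatatt
*Gria3* (chrX:38963430-38963459, plus strand): ggtgcttttatgCAGcaaggatgtgatatt
*Gria4* (chr9:4464122-4464151, minus strand): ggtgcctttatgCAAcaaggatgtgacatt
*Grin1* (chr2:25152891-25152920, minus strand): ggcgtcctgctcAACtctggcattggggaa
*Grin2a* (chr16:9653639-9653668, minus strand): ggcctggtcttcAACaattctgtgcccgtc
*Grin2c* (chr11:115115162-115115191, minus strand): gcactggtcttcAACaactctgttcccatc
*Grin2d* (chr7:53109748-53109777, minus strand): gccctggtgttcAACaactccgtgccagtg

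All 4 AMPA genes read a glutamine codon in the genome, CAG in *Gria1*, *Gria2* and *Gria3* and CAA in *Gria4*. Within the stretch, *Gria1* differed from *Gria2* at 4 bases, *Gria3* at 2 and *Gria4* at 3. All 4 NMDA genes shown read AAC, an asparagine codon. These are genome sequences, and read counts per gene hold nothing about how much of the *Gria2* transcript was edited.

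The genes themselves are all annotated as protein coding. The AMPA subunits lie at chr11:56824889-57143746 (*Gria1*, ENSMUSG00000020524), chr3:80488858-80606713 (*Gria2*, ENSMUSG00000033981), chrX:38754031-39031778 (*Gria3*, ENSMUSG00000001986) and chr9:4417899-4796234 (*Gria4*, ENSMUSG00000025892). The NMDA subunits lie at chr2:25146701-25174707 (*Grin1*, ENSMUSG00000026959), chr16:9577803-9995014 (*Grin2a*, ENSMUSG00000059003), chr6:135679844-136123529 (*Grin2b*, ENSMUSG00000030209), chr11:115110483-115128557 (*Grin2c*, ENSMUSG00000020734), chr7:53087253-53126298 (*Grin2d*, ENSMUSG00000002771) and chr4:49674483-49858616 (*Grin3a*, ENSMUSG00000039579). The exons of *Grin1* share 1307 bases with an antisense transcript, E130003G02Rik, which held 3593 reads over the 12 libraries, whereas *Grin1* held at least 7382 in each. The library kit does not mark strand, so that reads of the pair cannot be told apart there.

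Between 41076780 and 60867747 reads were counted per library. The 10 medium spiny neuron markers were all present, with a summed level of 4449 to 5641 CPM (edgeR's scaling of reads to library size, here with TMM factors), and none of them was called in any comparison. Cortical glutamatergic neuron markers, which the punch could pick up from neighboring tissue, were low but uneven. Their 8 genes summed to 7.19 to 22.9 CPM in NSM, 49.4 to 200.1 CPM in SM, 22.8 to 369 CPM in NSF and 45.0 to 116 CPM in SF, and none of the 8 was at 0 throughout a group. Libraries also differed in the level of GC-rich genes. In the 1780 genes with the highest exon GC content (57.8 to 76.5%), the median difference from the all-library mean was -0.21, -0.06 and 0.09 (log2) in the NSM libraries, -0.17, -0.26 and -0.04 in SM, 0.07, 0.14 and 0.20 in NSF and -0.01, 0.12 and 0.16 in SF.

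AMPA subunits dominated the pool, with *Gria2* and *Gria1* far above the rest. Scaled for exon length, *Gria2* had a mean level of 135 CPM per kilobase over the 12 libraries (range 128 to 142) and *Gria1* 111 (104 to 121). *Gria3* followed at 24.0, beside the obligatory NMDA subunit *Grin1* at 23.6, and these neighbors could not be ordered, since *Gria3* was the higher in 6 of 12 libraries. *Gria4* at 12.7 and *Grin2b* at 12.2 CPM per kilobase also overlapped, with *Gria4* the higher in 8 of 12 libraries.

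Lower in the order came the other NMDA subunits. *Grin2c* had 7.94 CPM per kilobase and *Grin2a* 6.52, and the lowest levels were those of *Grin3a* at 2.20 and *Grin2d* at 1.87. The ranges over libraries overlapped for both pairs, although within each of the 12 libraries *Grin2c* was above *Grin2a* and *Grin3a* above *Grin2d*. With coding length in place of exon length, *Grin3a* (10.1 CPM per kilobase) moved above *Grin2a* (7.87), and no other rank changed. *Grin3a* has the longest exons of the 10, at 15779 bases, of which 3420 are coding.

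**Figure D1:**
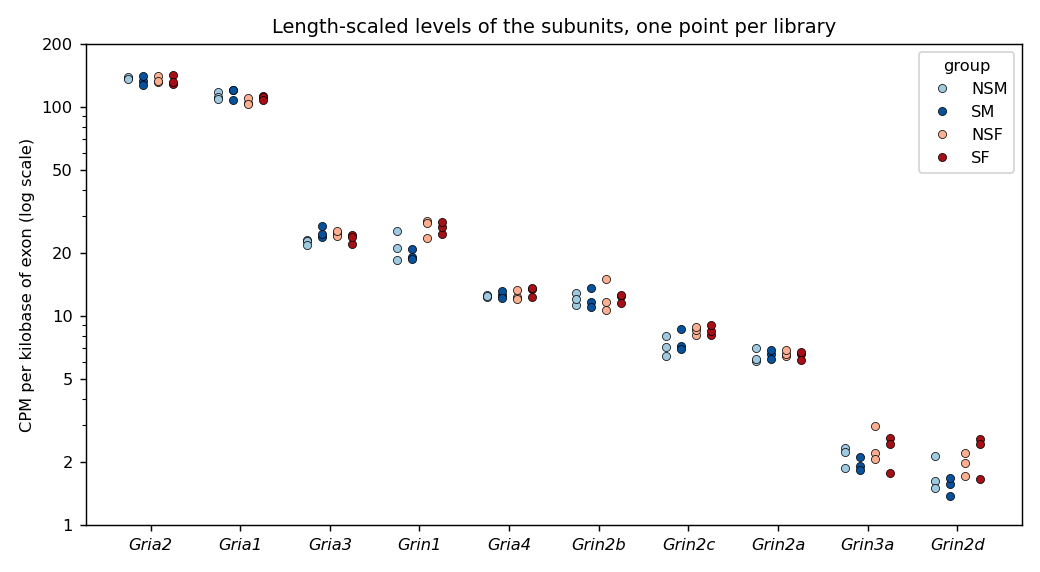
Levels of the 10 subunits scaled for length, in CPM per kilobase of exon on a log axis, with one point per library and color by group (NSM unstressed males, SM stressed males, NSF unstressed females, SF stressed females). *Gria2* and *Gria1* lie above 100 in every library, and *Grin3a* and *Grin2d* lie below 3.

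Within the AMPA family *Gria2* made up 47.7% ± 1.08 (SD, n = 12 libraries) of the length-scaled mRNA, *Gria1* 39.3% ± 1.16, *Gria3* 8.48% ± 0.499 and *Gria4* 4.48% ± 0.221. Among the GluN2 genes *Grin2b* made up 42.8% ± 2.92, *Grin2c* 27.8% ± 2.41, *Grin2a* 22.9% ± 1.35 and *Grin2d* 6.54% ± 1.20. The shares depended on the length used. With coding length *Gria2* made up 49.3%, *Gria1* 34.4%, *Gria3* 12.3% and *Gria4* 4.04%. *Grin2b* then made up 51.6%, *Grin2c* 24.0%, *Grin2a* 18.1% and *Grin2d* 6.25%. The AMPA genes together were 5.60 ± 0.646 times as high as the NMDA genes in NSM, 5.83 ± 0.365 times in SM, 4.77 ± 0.281 times in NSF and 4.85 ± 0.369 times in SF (SD, n = 3), on the length-scaled levels. These are shares of mRNA and not of receptor protein or of receptors at the synapse.

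The members differed in how much they varied. Over the 12 libraries the coefficient of variation was 3.60% for *Gria2*, 4.36% for *Gria4*, 4.84% for *Grin2a*, 4.99% for *Gria1* and 5.87% for *Gria3*. It was 9.95% for *Grin2b*, 10.5% for *Grin2c*, 16.0% for *Grin1*, 16.2% for *Grin3a* and 20.7% for *Grin2d*. The most variable genes thus included both *Grin1*, with 7382 to 16714 reads per library, and *Grin2d*, which had the fewest reads, 366 to 772.

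**Figure D2:**
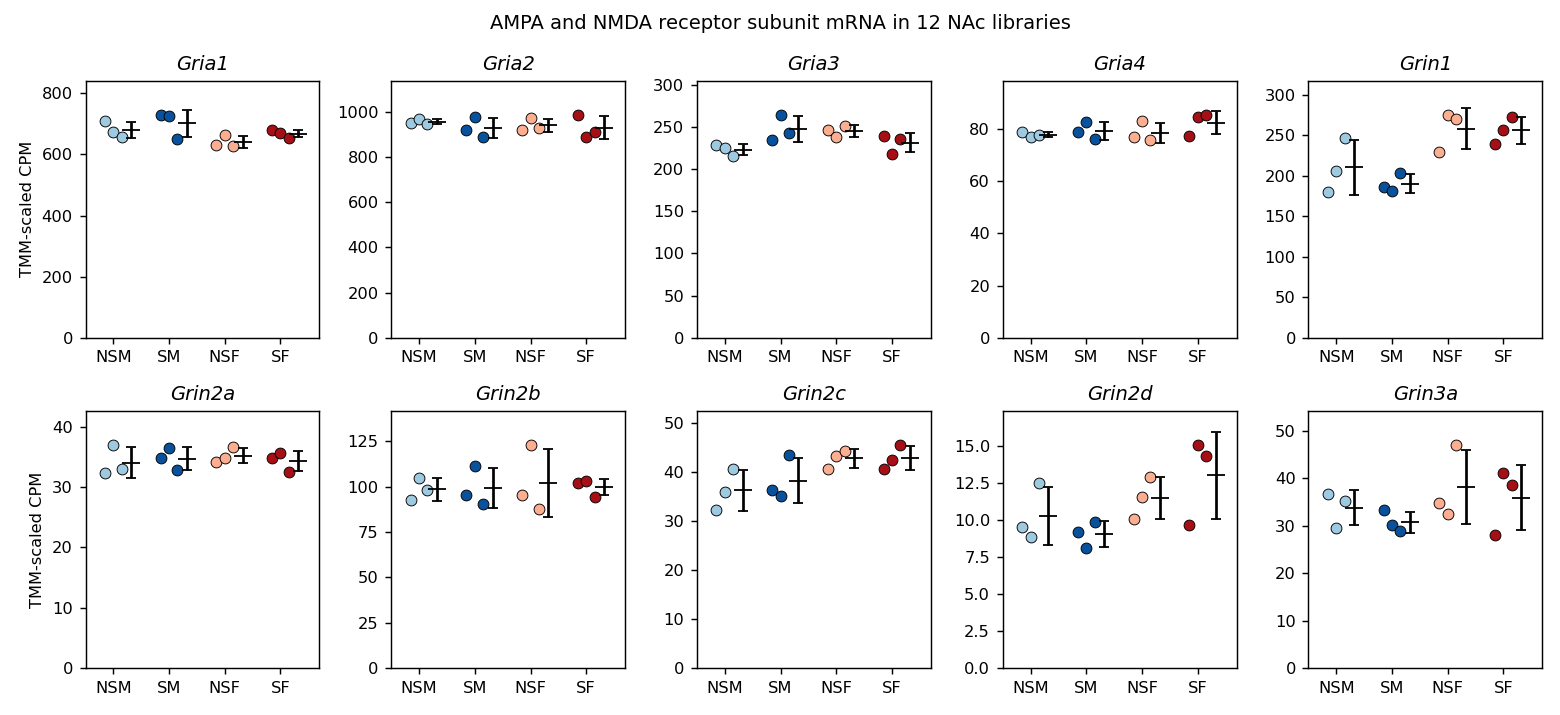
TMM-scaled CPM of each subunit in the 12 libraries, with 3 points per group and, to their right, the group mean with its SD. *Gria3* is the only member whose unstressed and stressed male points are apart, and the *Grin1* points of stressed females (240 to 273 CPM) all lie above those of stressed males (181 to 204 CPM).

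The first question of the design was what SCVS changed in males. No subunit was called by the study's rule, an unadjusted p under 0.05 with a fold change of at least 1.3, in a comparison where 6.44% of the 18593 tested genes were called. The log2 fold changes of the 10 ran from -0.17 to 0.15, with a median of 0.01 against -0.01 over all tested genes. Of the 10 intervals (95%), the widest bounds were -0.55, for *Grin2d*, and 0.27, for *Grin2c*.

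*Gria3* was the member with the clearest male difference, below the fold threshold. It had 228, 225 and 216 CPM in NSM and 235, 265 and 242 CPM in SM. All 3 stressed pools were above all 3 unstressed pools, a separation that 23.0% of tested genes showed in this comparison. The log2 fold change was 0.15 (SE 0.05, 95% interval 0.03 to 0.26, adjusted p = 0.142, limma), a fold of 1.11, and 21.5% of all genes had an unadjusted p under 0.05 here. Without SM replicate 2, the highest library, the log2 fold change was 0.10 (unadjusted p = 0.0858, limma). With the cortical marker level as a covariate it was 0.09 (unadjusted p = 0.232, limma), and the markers' part in the difference was not tested further. Oligodendrocyte markers also separated these groups, with a summed level of 4275 to 4779 CPM in NSM and 5158 to 5199 CPM in SM, and 2 of the 5, *Mobp* (log2 fold change 0.32) and *Mog* (0.29), had an adjusted p under 0.05 (limma), though none was called. Microglia markers did so as well, at 186 to 206 CPM in NSM and 213 to 243 CPM in SM, with 2 of the 4 called as higher, *Aif1* and *P2ry12*, and 2 with an adjusted p under 0.05, *P2ry12* (0.39) and *Cx3cr1* (0.29). Of the 8 interneuron markers 1 was called as higher, *Pvalb* (0.93), and 1 as lower, *Calb2* (-0.57). Of the 3 endothelial markers 1 was called as lower, *Cldn5* (-0.45). Over all tested genes 6.44% were called in this comparison and 3.32% had an adjusted p under 0.05 (limma). These marker genes were named after their values were seen, and the part of these cell types was not tested.

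The remaining AMPA subunits stayed close to their control levels in males. *Gria1* had 709, 674 and 656 CPM in NSM and 731, 725 and 652 CPM in SM, which overlapped (log2 fold change 0.05, interval -0.07 to 0.16). *Gria2*, the calcium-limiting subunit, had 953, 969 and 948 CPM in NSM and 921, 977 and 890 CPM in SM, and the groups overlapped (log2 fold change -0.04, interval -0.15 to 0.07). *Gria4* overlapped as well, at 77.8 ± 0.930 CPM in NSM and 79.3 ± 3.39 CPM in SM (SD, n = 3).

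Among NMDA subunits, *Grin1* had 180, 205 and 247 CPM in NSM and 186, 181 and 204 CPM in SM. The unstressed males thus spanned the stressed ones, and the log2 fold change of -0.14 had an interval of -0.35 to 0.08 (adjusted p = 0.452, limma). *Grin2a* and *Grin2b*, the main GluN2 subunits of forebrain neurons, had log2 fold changes of 0.03 and 0.00, and *Grin2c*, *Grin2d* and *Grin3a* of 0.08, -0.17 and -0.14. With the trend on GC content removed, an alternative chosen after seeing the data, *Grin2c* was higher in stressed males by 0.19 on the log2 scale (unadjusted p = 0.00114, adjusted p = 0.0349, limma), still under the fold threshold, and *Grin2d* was at -0.03. With the cortical covariate the male value of *Grin2c* was 0.00, that of *Grin3a* -0.36 (unadjusted p = 0.0689, limma), that of *Grin2d* -0.31 (0.197) and that of *Gria1* 0.13 (0.0696), none of them called.

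In females no subunit was called, in a comparison where 1.73% of genes were called. The log2 fold changes ran from -0.08 to 0.16, no member had an unadjusted p under 0.05 (4.23% of all genes did), and no member had groups that did not overlap (11.3% did). The largest difference was that of *Grin2d*, with 10.1, 11.5 and 12.9 CPM in NSF and 9.68, 15.1 and 14.4 CPM in SF, where the lowest pool was a stressed one (log2 fold change 0.16, interval -0.18 to 0.50). For the 4 AMPA genes the bounds of all intervals lay within -0.20 and 0.18, so that at this depth and with 3 pools a change of 1.3-fold was outside the intervals, whereas for *Grin2d* and *Grin3a* it was inside them.

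The female difference of *Gria3* had the opposite sign, and its interval included 0. It had 246, 238 and 252 CPM in NSF and 239, 218 and 236 CPM in SF, with 1 stressed pool above the lowest unstressed pool, and a log2 fold change of -0.08 (interval -0.20 to 0.03, adjusted p = 0.948, limma). Without SF replicate 2, the lowest library, it was -0.04 (unadjusted p = 0.527, limma). The difference between the stress effects, female minus male, was -0.23 (SE 0.08, interval -0.40 to -0.07, unadjusted p = 0.00925, adjusted p = 0.358, limma). No other member had an unadjusted interaction p under 0.05, a level that 9.55% of all genes passed, and none of the 10 was called as an interaction (4.42% of genes were). With the cortical covariate the *Gria3* interaction was -0.15 (unadjusted p = 0.171, limma), and with the GC trend removed it was -0.23 (unadjusted p = 0.00384, limma). The covariate also moved the interactions of *Grin2d* from 0.33 to 0.53 and of *Grin3a* from 0.06 to 0.38, with unadjusted p of 0.118 and 0.170 (limma).

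**Figure D3:**
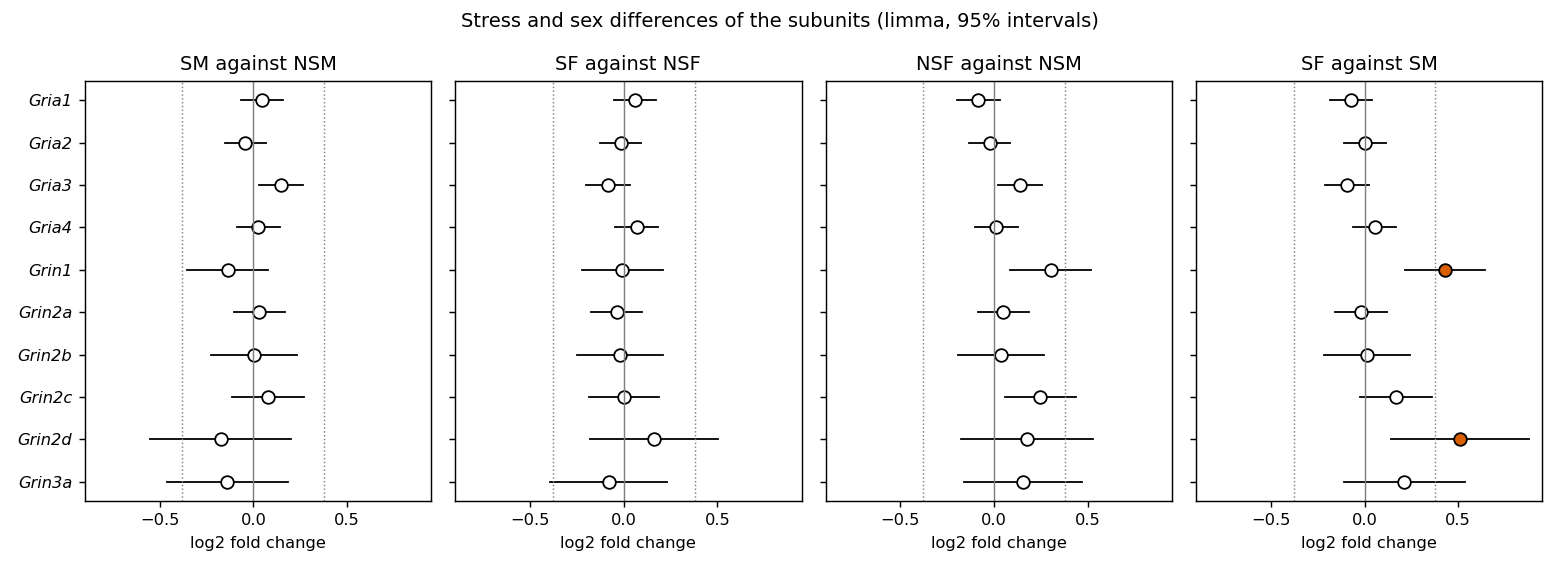
Log2 fold changes of the 10 subunits with 95% intervals from limma, for stress in males, stress in females, and sex in unstressed and in stressed mice; dotted lines mark 1.3-fold and filled points are called. Only *Grin1* and *Grin2d* in the comparison of stressed females with stressed males are filled, at 0.43 and 0.51.

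Subunit composition was compared through 4 ratios taken within each library, which do not depend on how libraries are scaled. The *Gria1* to *Gria2* ratio bears on receptors without GluA2. As read counts on the log2 scale, not scaled for length, it was -0.49 ± 0.0580 in NSM, -0.40 ± 0.0617 in SM, -0.55 ± 0.0138 in NSF and -0.48 ± 0.0667 in SF (SD, n = 3). The stressed mean was higher by 0.09 in males and by 0.08 in females, with p = 0.3 and p = 0.2 in two-sided exact permutation tests, whose smallest possible p with 3 against 3 is 0.1.

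Averaged over the sexes, the *Gria1* to *Gria2* ratio was higher after SCVS by 0.08, with p = 0.035 in a two-sided exact permutation test within sex over 400 arrangements, where the smallest possible p is 0.005. Adjusted over the 4 ratios the p was 0.07, above the threshold of 0.05. The log2 of the share of *Gria2* in the reads of all 4 AMPA genes was lower after SCVS by 0.06 in males and 0.02 in females (p = 0.1 and 0.4, exact permutation). On average the log2 difference was -0.04 (exact permutation p = 0.03, adjusted 0.07). The ratio *Grin2a* to *Grin2b*, which rises as synapses mature, differed by 0.00 (exact permutation p = 0.965), and *Grin3a* to *Grin1* by -0.04 (exact permutation p = 0.79).

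Only the comparisons between the sexes held called members, and these were NMDA subunits. In unstressed mice no member was called, against 5.31% of all genes, and 3 had an unadjusted p under 0.05 (15.4% of all genes). In stressed mice 2 members were called, *Grin1* and *Grin2d*, both higher in females, where 5.55% of genes were called in either direction and 4.58% as higher in females. They were also the members with an unadjusted p under 0.05, against 16.4% of all genes. By limma no member had an adjusted p under 0.05 in either comparison, and 0.285% and 0.145% of all genes did. This depended on the test, since with DESeq2 the adjusted p in stressed mice was 0.00649 for *Grin1* and 0.0446 for *Grin2d*, in a fit where 591 genes passed against 27 by limma. With edgeR's quasi-likelihood test the adjusted p was 0.0720 and 0.122. By limma no member passed for stress either, where 3.32% of all genes passed in males, 0.0% in females and 0.0269% in the interaction.

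*Grin1*, the obligatory NMDA receptor subunit, had 229, 276 and 270 CPM in NSF and 240, 257 and 273 CPM in SF. The female pools were above all male pools except NSM replicate 3, at 247 CPM, which lay above 2 of them. The log2 fold change was 0.30 in unstressed mice (SE 0.10, interval 0.09 to 0.52, adjusted p = 0.177, limma) and 0.43 in stressed mice (SE 0.10, interval 0.21 to 0.65, adjusted p = 0.0884, limma), a fold of 1.35. The groups did not overlap in stressed mice, which 20.4% of all genes shared. The 2 sex differences were not shown to differ from each other (interaction 0.13, adjusted p = 0.835, limma).

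*Grin1* has GC-rich exons, at 56.3%, and GC-rich genes as a whole were higher in females. The median log2 fold change of female over male was 0.09 and 0.10, in unstressed and stressed mice, for the 1779 genes with 55.4 to 57.8% GC. With the GC trend removed the *Grin1* difference was 0.21 (unadjusted p = 0.0196, limma) in unstressed mice and 0.32 (unadjusted p = 0.00131, limma) in stressed mice, a fold of 1.25 that was no longer called. With the cortical covariate it was 0.28 and 0.44 (unadjusted p = 0.0846 and 0.00105, limma). The unstressed difference was 0.19 without NSM replicate 1 (unadjusted p = 0.0669, limma), and without NSM replicate 3 it was 0.42 and called. The adjusted p of the stressed difference ran from 0.0243 (without NSM replicate 1) to 0.426 (without SM replicate 2) when libraries were left out in turn (limma).

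*Grin2d*, which gives slow currents and is known from interneurons, had 9.53, 8.84 and 12.5 CPM in NSM and 9.21, 8.08 and 9.88 CPM in SM. The SF pools, at 9.68, 15.1 and 14.4 CPM, overlapped with those of SM. The log2 fold change in stressed mice was 0.51 (SE 0.17, interval 0.14 to 0.88, adjusted p = 0.160, limma), and it was 0.18 in unstressed mice. Its exons have the highest GC content of the 10, at 65.1%, and in the 1780 genes with the highest GC content the median difference was 0.21 in unstressed and 0.25 in stressed mice, with 17.4% and 22.6% of genes called. With the GC trend removed the *Grin2d* differences were -0.20 in unstressed and 0.05 in stressed mice (unadjusted p = 0.0966 and 0.679, limma). The call was also lost without SM replicate 2 (0.41, unadjusted p = 0.0527) or SF replicate 2 (0.37, unadjusted p = 0.0570), and without SF replicate 1 the difference was 0.71 (adjusted p = 0.0304, limma).

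*Grin2c*, best known from cerebellar granule cells and astrocytes, had 32.2, 35.8 and 40.5 CPM in NSM and 40.6, 43.2 and 44.3 CPM in NSF. The unstressed groups did not overlap, though only by 40.5 against 40.6 CPM, and 19.5% of all genes showed such a separation. The log2 fold change was 0.25 (SE 0.09, interval 0.06 to 0.44, adjusted p = 0.204, limma), and in stressed mice 0.17 (adjusted p = 0.368, limma). Its exons have 62.0% GC, and with the GC trend removed the differences turned to -0.02 and -0.16 (unadjusted p = 0.666 and 0.00404, limma). The unstressed difference was 0.15 with the cortical covariate (unadjusted p = 0.244, limma) and 0.16 without NSM replicate 1 (unadjusted p = 0.0982, limma).

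**Figure D4:**
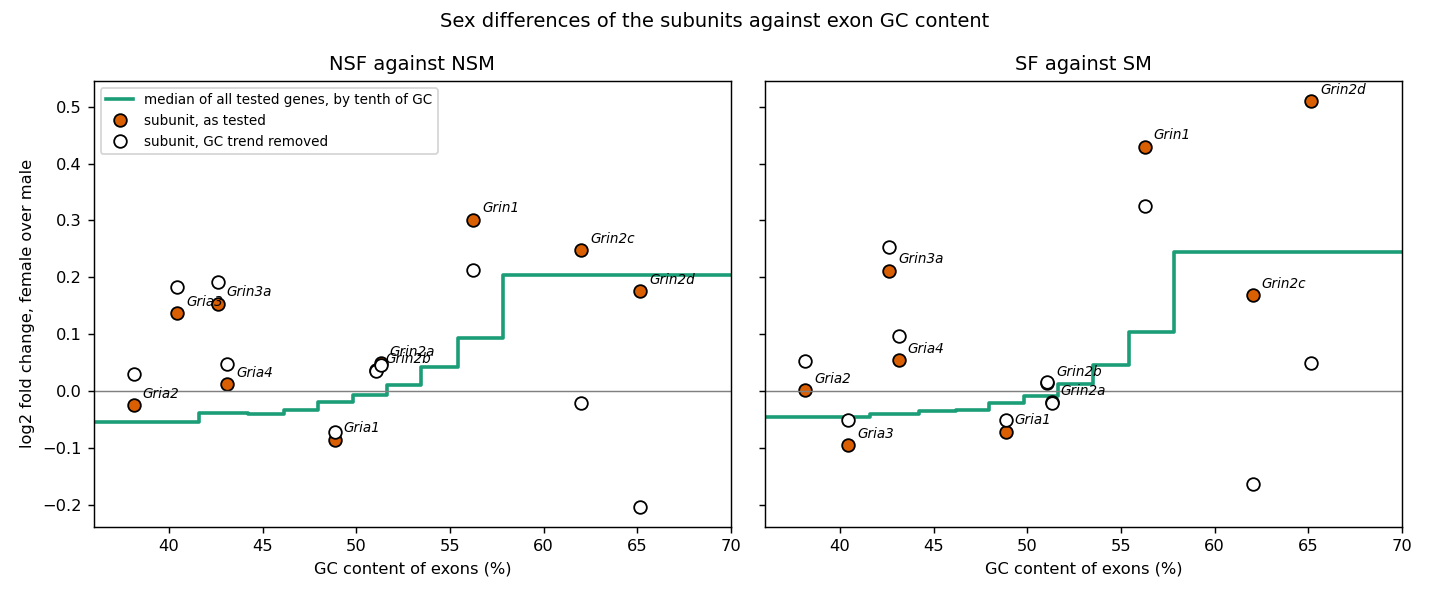
Log2 fold change of females over males for each subunit against the GC content of its exons, in unstressed (left) and stressed (right) mice; the step line is the median of all tested genes in 10 bins of GC content, and open points are values with the GC trend removed. *Grin2d* and *Grin2c* drop to or below 0.05 on removal, and *Grin1* stays above the other GC-rich subunits at 0.21 and 0.32.

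Among the AMPA subunits only *Gria3*, which lies on the X chromosome, had an unadjusted p under 0.05 for sex. Unstressed females were above unstressed males with no overlap, a separation that 19.5% of all genes showed. The log2 fold change was 0.14 (interval 0.02 to 0.25, adjusted p = 0.250, limma). In stressed mice the sign was the opposite, -0.09 (interval -0.21 to 0.02). With the GC trend removed the unstressed difference was 0.18 (unadjusted p = 0.00180, limma), and with the cortical covariate 0.07 (unadjusted p = 0.393, limma). Without NSM replicate 3, NSF replicate 1 or NSF replicate 3 the unadjusted p was 0.0749, 0.0685 and 0.0908 (limma). Oligodendrocyte markers separated the unstressed sexes too, at 4275 to 4779 CPM in NSM and 4880 to 5250 CPM in NSF. So did the sums of astrocyte markers (1032 to 1117 against 1003 to 1031 CPM) and oligodendrocyte precursor markers (161 to 173 against 155 to 159 CPM). Choroid plexus markers did as well (12.5 to 79.2 against 9.26 to 11.5 CPM). The astrocyte, precursor and choroid plexus sums were all lower in NSF, the astrocyte sums being apart only by 1032 against 1031 CPM. Single genes went both ways, from -0.21 to 0.15 (log2 fold change) for astrocyte and -0.15 to 0.13 for precursor markers, none called. The part of these markers in any of these differences was not tested. The sex differences of *Gria1*, *Gria2* and *Gria4* lay between -0.08 and 0.06, and those of *Grin2a* and *Grin2b* between -0.02 and 0.05. *Grin3a* had 34.8, 32.6 and 47.1 CPM in NSF and 28.1, 41.1 and 38.7 CPM in SF, wide enough to overlap with the males in both conditions (log2 fold changes 0.15 and 0.21).

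The cortical markers themselves differed between the groups. Of the 8 markers 2 were called for male stress, both higher, 6 for the interaction, all lower, and 6 for unstressed females over males, all higher. The shares called over all tested genes were 6.44%, 4.42% and 5.31%. Outside the cortical list, the interneuron marker *Lhx6* was called for the interaction (0.39) and *Pvalb* for unstressed females over males (0.71). Fewer cells of a type and less RNA per cell cannot be told apart in bulk tissue. In the fit with the marker level as a covariate, 582 of 18593 genes were called for the interaction and 0 had an adjusted p under 0.05. *Grin2b* alone among the members gained a call there. Its interaction was -0.39 (unadjusted p = 0.0242, adjusted p = 0.913, limma) against -0.02 without the covariate. Its unstressed sex difference was then 0.33 (unadjusted p = 0.0122, limma) and its male stress effect 0.25 (unadjusted p = 0.0321, limma), neither of them called, against 0.04 and 0.00 without the covariate. The *Grin2b* values themselves were 95.5, 123 and 87.6 CPM in NSF, and the library at 123 CPM was the NSF pool with the lowest marker sum, 22.8 CPM.

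**Figure D5:**
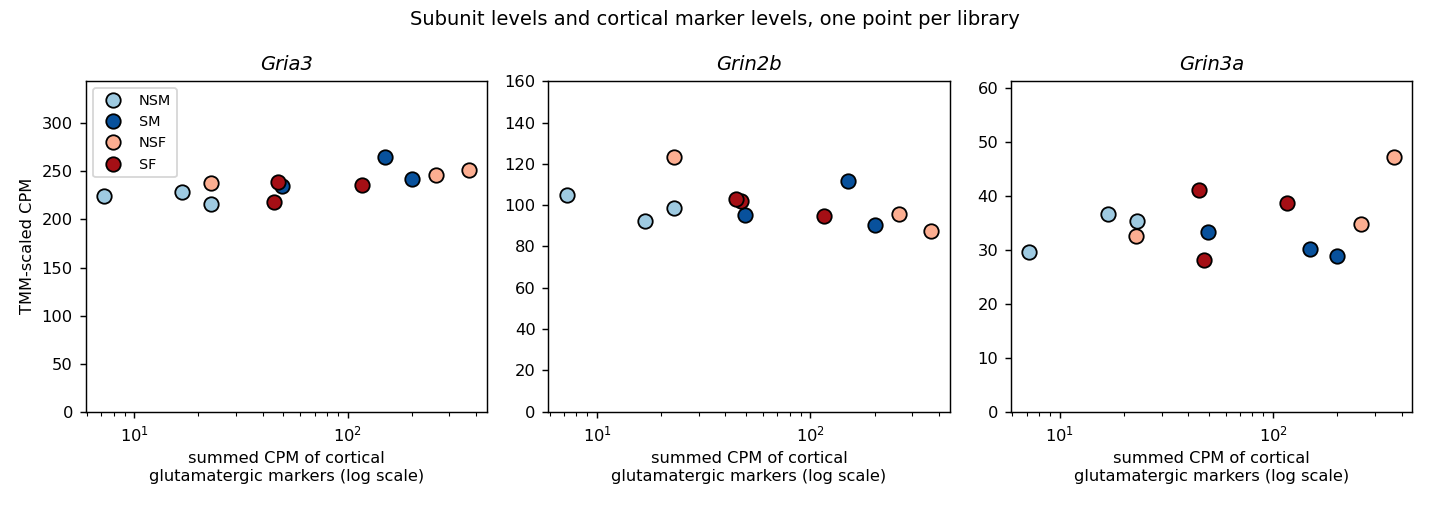
TMM-scaled CPM of *Gria3*, *Grin2b* and *Grin3a* against the summed CPM of 8 cortical glutamatergic markers on a log axis, one point per library. The NSM libraries lie at the left (7.19 to 22.9 CPM of markers), and 2 NSF libraries lie at the right (259 and 369 CPM).

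The proteins that assemble, anchor and modify these receptors were counted in lists of related genes. Over all tested genes, SCVS called 1.73% in females and 6.44% in males. In females it called none of the 18 AMPA receptor auxiliary and assembly genes, 22 postsynaptic scaffold genes, 13 tested kinase, phosphatase and editing genes, 6 genes of co-agonist handling and 8 other ionotropic glutamate receptor subunits. In males it called *Ppp3ca*, a catalytic subunit of calcineurin, which dephosphorylates GluA1, with 1673 ± 112 CPM in NSM and 2203 ± 250 CPM in SM (SD, n = 3; log2 fold change 0.39, adjusted p = 0.0405, limma). With the GC trend removed its log2 fold change was 0.37, below the fold threshold. The other male call was *Grin3b*, the second GluN3 subunit, at 0.292 ± 0.110 and 0.509 ± 0.148 CPM, which rests on a mean of 22.1 reads per library (log2 fold change 0.82, adjusted p = 0.202, limma). No auxiliary, scaffold or co-agonist gene was called in males. An adjusted p under 0.05 was found there for 3.32% of all tested genes, and 5 further list genes had one below the fold threshold. These, named after their values were seen, were the auxiliary genes *Cacng2* (stargazin, log2 fold change 0.25) and *Shisa9* (-0.20), the scaffold *Shank2* (-0.23), and the kinase *Prkca* (0.24) and the calcineurin subunit *Ppp3r1* (0.32). The median log2 fold changes of the auxiliary, scaffold and co-agonist lists were -0.03, 0.01 and 0.03, against -0.01 over all tested genes.

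In unstressed females over males 1 of 18 auxiliary genes was called, *Shisa6* (log2 fold change 0.41), as well as *Grin3b* (0.95) and 4 of 22 scaffold genes, all higher in females. The share called over all tested genes was 5.31%. The median over the auxiliary genes was 0.11 and over the scaffold genes 0.08, against 0.00 over all tested genes. The scaffold genes were *Dlgap3* (0.63), *Homer2* (0.60), *Shank1* (0.50) and, named after its value was seen, *Dlgap1* (0.39). In stressed mice *Dlgap3* (0.66) and *Shank3* (0.43), scaffolds linked through PSD-95 to NMDA receptors, were called, and no gene of the other 4 lists. The share called over all tested genes was 5.55% there. With the GC trend removed *Dlgap3* was 0.31 in unstressed and 0.25 in stressed mice, *Shank1* 0.22, *Shank3* 0.11 and *Grin3b* 0.63, none of them called. *Dlgap1* and *Homer2* kept calls, at 0.42 and 0.63, whereas with the cortical covariate both were 0.11, *Shank1* 0.16 and *Shisa6* -0.15. None of these scaffold genes had an adjusted p under 0.05.

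Across the 12 libraries, the member pairs that varied most alike were among the NMDA subunits. *Grin1* varied with *Grin2c* (Pearson r = 0.860) and *Grin2d* (r = 0.831), and the lowest correlation was that of *Gria1* with *Grin2c* (r = -0.766). The genes most like each member, among those with a mean of at least 100 reads, were *Triobp* for *Grin1* (r = 0.994, n = 12), *Poc5* for *Gria1* (0.981), *Arhgef10l* for *Grin2c* (0.971), *Slc29a4* for *Grin2d* (0.964) and *Slc43a2* for *Grin3a* (0.959). They were *Sv2b* for *Gria3* (0.941), *Fam149a* for *Gria4* (0.939), *Usp7* for *Gria2* (0.913), *Insr* for *Grin2b* (0.902) and *Tcfcp2l1* for *Grin2a* (0.808). The points share library scaling and the GC trend. *Triobp*, *Arhgef10l* and *Slc29a4* have exons with 57.4, 59.5 and 60.1% GC, beside 56.3, 62.0 and 65.1% in *Grin1*, *Grin2c* and *Grin2d*. Other pairs were further apart, such as *Slc43a2* at 53.2% with *Grin3a* at 42.6%, and *Usp7* at 46.3% with *Gria2* at 38.1%. The correlations with the most alike genes were by choice the highest among genes with a symbol and a mean of at least 100 reads. They are given as a description.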

How the data were processed

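RNA-Seq libraries of NAc tissue (12, 3 per group) were analysed, and the small RNA libraries were not used here. The authors sequenced paired reads of 50 bases from TruSeq RNA v2 libraries on 3 lanes, aligned them with TopHat2 to Ensembl NCBIM37 (release 67) and counted them per gene with HTSeq. The deposited values are raw counts without normalization. The strand setting is not given in the sources used here. Names, lengths and coordinates came from the GENCODE annotation of NCBIM37 (Ensembl 65).

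The 18593 genes exceeding 5 reads in 80% or more of any group's libraries were kept. Counts were TMM scaled, passed through voom and fitted with limma 3.58.1 (R 4.3.3, edgeR 4.0.16), one mean per group, after the filter and the threshold in the study's methods. The Benjamini-Hochberg adjustment ran over every tested gene of a comparison. Libraries are separate pools of mice. The GC trend was a lowess curve per library (span 0.3) fitted on genes with a mean of at least 50 reads, for 17795 genes. As alternatives, fits were made with edgeR's quasi-likelihood test and DESeq2 1.42.0, with other scalings, no filter, covariates, a replicate block and leaving out each library. Ratios were tested with scipy 1.17.1 and numpy 2.4.6 in Python 3.11.15, and plots used matplotlib 3.10.9. The steps were tested on simulated data.

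The members and lists were chosen with earlier results of these data known. All 10 members are named. From each other list but the cortical markers, called genes with a mean of at least 10 reads are named. At most 3 are named per comparison by size of change, except genes said to be named after their values were seen. Called cortical markers were counted and not named. 126 of 127 listed genes were matched.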

Additional observations from a re-analysis of the deposited data

Results flagged for a closer look

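The estimated stress effects on *Gria3* were -0.23 apart on the log2 scale (female minus male). The unadjusted interaction p was 0.00925 and the adjusted p 0.358 (limma), and 9.55% of all tested genes had an unadjusted p under 0.05. With the cortical covariate the interaction was -0.15 (unadjusted p = 0.171, limma). All 3 stressed male pools were above the unstressed male pools, a separation that 23.0% of tested genes showed. In females, 2 of 3 stressed pools were below all unstressed pools. Leaving out each library in turn gave -0.27 to -0.19.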

How the results depend on the processing

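With 3 pools per group, the widest intervals were those of *Grin2d* and *Grin3a*. The count of called members moved under few alternatives. Called by unadjusted p alone, 1 member passed for stress in males, 1 for the interaction and 3 for sex in unstressed mice, and called by adjusted p in the limma fit, 0 passed for sex in stressed mice. There, 0 were called with the GC trend removed. By adjusted p, *Grin1* and *Grin2d* passed there with the DESeq2 Wald test (0.00649 and 0.0446), and *Grin2c* passed for stress in males with the GC trend removed (0.0349). With the cortical covariate 1 member was called in the interaction (*Grin2b*, adjusted p = 0.913, limma). Leaving out each library in turn gave 0 to 1 called members for the interaction (1 without SF replicate 1, *Grin2d* at 0.53), 0 to 1 for sex in unstressed mice (1 without NSM replicate 3, *Grin1*) and 1 to 2 for sex in stressed mice.

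Deviations from the group means were correlated between same-numbered libraries. For stressed and unstressed mice, r was 0.0297, 0.00585 and 0.345 in males and 0.110, 0.0880 and 0.127 in females. For females and males, r was 0.149, -0.0223 and 0.140 in unstressed mice and 0.0211, -0.0147 and -0.0218 in stressed mice. The libraries were not taken as paired. With the numbers as a replicate block, the count of called members was the same as without it in each of the 5 comparisons (2 for sex in stressed mice, otherwise 0). The adjusted p under the block was below 0.05 for *Grin1* (0.00669) and *Grin2d* (0.0385) in stressed mice and for *Grin1* (0.0289) and *Grin2c* (0.0374) in unstressed mice, for sex, and genes with an adjusted p under 0.05 went from 27 to 837 and from 53 to 562. Under the block the average stress differences of *Gria1* over *Gria2* (0.084) and of *Gria2* over the AMPA sum (-0.040) had an exact permutation p of 0.0625. Leaving out each library in turn gave 0.066 to 0.10 for the first and -0.049 to -0.034 for the second, with p up to 0.07 and 0.065 (exact permutation). It gave -0.072 to 0.069 for *Grin2a* over *Grin2b* and -0.11 to 0.046 for *Grin3a* over *Grin1*.

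Of the 50 log2 fold changes, many near 0 changed sign with the setting, and the cause was not tested. Scaled by library size only, values turned to -0.0036 (*Gria1*), -0.024 (*Gria4*), -0.018 (*Grin2a*) and -0.046 (*Grin2b*) for stress in males, -0.015 (*Grin2c*) for stress in females, 0.0058 (*Grin2b*) for the interaction, -0.0074 (*Gria4*) for sex in unstressed mice. With the cortical covariate, values turned to 0.0072 (*Gria2*) for stress in males, 0.00076 (*Grin1*) and 0.013 (*Grin3a*) for stress in females, -0.10 (*Gria1*), -0.046 (*Gria2*), -0.024 (*Gria4*) and 0.037 (*Grin2c*) for the interaction, 0.012 (*Gria1*), 0.035 (*Gria2*) and -0.10 (*Grin3a*) for sex in unstressed mice, -0.011 (*Gria2*) and -0.052 (*Grin2b*) for sex in stressed mice. With the GC trend removed, values turned to 0.018 (*Grin1*) for stress in females, 0.030 (*Gria2*), -0.020 (*Grin2c*) and -0.20 (*Grin2d*) for sex in unstressed mice, -0.16 (*Grin2c*) for sex in stressed mice. With the DESeq2 Wald test, values turned to -0.011 (*Gria2*) and -0.0037 (*Grin2b*) for sex in stressed mice. With DESeq2 size factors, the value turned to -0.012 (*Gria2*) for sex in stressed mice. Leaving out each library in turn, further values crossed 0. They ran from -0.00053 to 0.061 (*Gria4*), -0.0014 to 0.10 (*Grin2a*), -0.080 to 0.073 (*Grin2b*) and -0.011 to 0.17 (*Grin2c*) for stress in males. They ran from -0.062 to 0.020 (*Gria2*), -0.086 to 0.042 (*Grin1*), -0.060 to 5.9e-06 (*Grin2a*), -0.12 to 0.13 (*Grin2b*), -0.042 to 0.039 (*Grin2c*) and -0.19 to 0.086 (*Grin3a*) for stress in females. They ran from -0.038 to 0.045 (*Gria1*), -0.019 to 0.060 (*Gria2*), -0.13 to 0.12 (*Grin2b*), -0.16 to 0.020 (*Grin2c*) and -0.052 to 0.22 (*Grin3a*) for the interaction. They ran from -0.029 to 0.034 (*Gria4*), -0.11 to 0.14 (*Grin2b*) and -0.010 to 0.26 (*Grin3a*) for sex in unstressed mice. They ran from -0.043 to 0.025 (*Gria2*), -0.067 to 0.019 (*Grin2a*) and -0.057 to 0.090 (*Grin2b*) for sex in stressed mice.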
